A study of Mus musculus with 8 samples.

Results

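The comparison described here set 4 arrays of mouse mammary cultures given interferon-α (IFNα) against 4 arrays of control cultures, over 2 cell populations at once. All 8 of the 8 arrays entered it. The treated side held 2 IFNα arrays of a mammary stem cell enriched fraction (MaSC) and 2 of a luminal progenitor enriched fraction (LP), and the other side held 2 control arrays of each. Donor mice were virgin, wild type and of strain FVB/N-J, and their mammary cells were plated as 3-dimensional mammospheres, received IFNα at 1000 U/ml where treated, and were harvested after 8 days. The sample titles give both populations the same surface marker text, so the names MaSC and LP rest on the source names and characteristics. Controls are labelled only as controls, and no allele or agent other than IFNα is named for any group. The labels leave unsaid whether sorting came before or after culture, and whether the replicates were separate animals or cultures. The p-values therefore measure the spread between these samples, which may be technical.

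Values are log2 ratios of sample RNA, labelled with Cy5, over a universal mouse reference RNA made from a mix of cell lines and labelled with Cy3. A value of 0 is equal signal in both. They are compared between arrays for 1 gene and never between genes. The effect of IFNα was estimated for 21794 genes in limma with population as a covariate, so that a gene's change is the mean of its differences in MaSC and in LP. A gene passed at a Benjamini-Hochberg adjusted p below 0.05, two-sided, and errors given with a change are standard errors.

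LP control replicate 1 stood apart from the other arrays. Its standard deviation over probes was 0.626, where the others lay between 1.19 and 1.26, and the comparison was therefore repeated on the other 7 arrays. In that repeat a gene's difference in MaSC weighed more than its difference in LP. The pairwise correlation of arrays over all probes ran from 0.537 to 0.818. Basal and myoepithelial markers averaged 0.73 to 0.94 on MaSC arrays and -1.27 to -0.47 on LP arrays. Luminal markers averaged 2.49 to 2.82 on MaSC arrays and 2.07 to 3.01 on LP arrays, so their mean did not separate the populations. Endothelial markers averaged 2.13 to 2.83 on MaSC arrays and -0.19 to 0.46 on LP arrays, which the name MaSC does not cover. Only 2 arrays a group limited the precision, and the median standard error of a change was 0.23.

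Type I interferons such as IFNα bind the receptor pair Ifnar1 and Ifnar2. The kinases Jak1 and Tyk2 then activate the factor ISGF3, of which Stat2 and Irf9 are subunits and which binds interferon-stimulated response elements near target genes. The classical targets block viral entry, RNA and protein synthesis, sense nucleic acids and present peptides on MHC class I. In the mammary gland, stem cells of the basal layer can regrow a gland on transplantation, and luminal progenitors give rise to milk-secreting and hormone-sensing luminal cells.

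With IFNα 134 genes rose, which is 0.615% of all genes tested, and 3 genes fell, which is 0.0138%. Of the rises, 110 belonged to a working set of classical interferon genes, of which 247 were tested, and 24 lay outside it. Every one of the 134 was higher on both IFNα arrays than on both control arrays within MaSC and within LP, and 132 were higher on each of the 4 IFNα arrays than on any of the 4 control arrays. Of all 21794 genes, 624 were higher on both IFNα arrays than on both controls within each population. The 134 were chosen by a test on these same arrays, so their order adds no separate support. At an unadjusted p below 0.05 there were 658 genes higher and 765 lower. Part of these counts arises by chance, and that part was not estimated. The median change over all genes was -0.02, against 1.27 over the classical set. In whole cultures, more cells of a type and more RNA per cell cannot be told apart.

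The classical response gives the scale for the rest. Rises in the set had a median of 2.85 and ran from 0.92 to 7.61. Ifit1, which binds viral RNA that lacks cap methylation, read 3.75 and 4.17 in MaSC cultures with IFNα, against -3.94 and -3.10 in MaSC controls, and 4.62 and 4.93 in LP cultures with IFNα, against -1.09 and -4.83 in LP controls. The groups were far apart in both populations, and LP control replicate 1 was the highest of the controls. Ifit1 rose by 7.61 ± 0.74 (adjusted p = 0.00495), and by 8.33 without that array (adjusted p = 0.00141). Stat2, a subunit of ISGF3, rose by 3.31 ± 0.12 (adjusted p = 0.000145) and Irf7, the factor that amplifies interferon production, by 5.31 ± 0.38 (adjusted p = 0.00137). The receptor genes did not pass: Ifnar1 was at -0.12 ± 0.18 and Ifnar2 at 0.12 ± 0.29, with adjusted p = 0.952 and 0.969. Lcor, a nuclear receptor corepressor, was at -0.39 ± 0.20 (adjusted p = 0.859).

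Classical groups did not contribute equally, where 0.615% of all genes tested rose. Of 43 antiviral effectors 27 rose (median change 1.98), of 12 oligoadenylate synthetases and RNase L genes 9 rose (median 1.84), of 20 interferon-inducible GTPases 13 rose (median 2.53), and of 31 genes of MHC class I and peptide supply 16 rose (median 1.91). Of 22 receptors, kinases and factors of the pathway 5 rose, with a median of 0.12. They were Stat2, Irf7, Ifi35, Irf9 at 1.68 ± 0.16 and Nmi at 1.66 ± 0.17. None of 8 interferon-inducible chemokines passed, and their median was -0.16. Cxcl9, a T cell attractant, had the lowest p of the list and read 2.61 and 2.37 in MaSC cultures with IFNα, against -0.91 and -0.53 in MaSC controls, and 0.09 and 0.89 in LP cultures with IFNα, against -0.28 and -0.34 in LP controls. Its IFNα arrays were above its controls by 3.21 in MaSC and by 0.80 in LP, a difference between populations that did not pass (interaction adjusted p = 1), and the change over both was 2.00 ± 0.50 (adjusted p = 0.344). Cxcl10, a second T cell attractant, was at 2.41 ± 0.64 (adjusted p = 0.401) and Ccl5 at -1.16 ± 0.32 (adjusted p = 0.417), in opposite directions, and both are named after their values were seen.

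The 24 genes outside the classical set rose by a median of 1.55, from 0.99 to 4.996, against a median of 2.85 in the classical rises. Of these, 19 had gene names and 5 were gene models. Membership went by gene symbol, so gene models such as Gm11127 and LOC547349 count as outside it, though their synonym H2-K1 names a classical gene. The set is a working list, and for some of the genes outside it interferon induction is known from other cells. By role they comprised secreted and surface proteins, effectors of cell death, RNA enzymes and ubiquitin ligases, and a mixed group of metabolic and other genes.

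**Figure D1:**
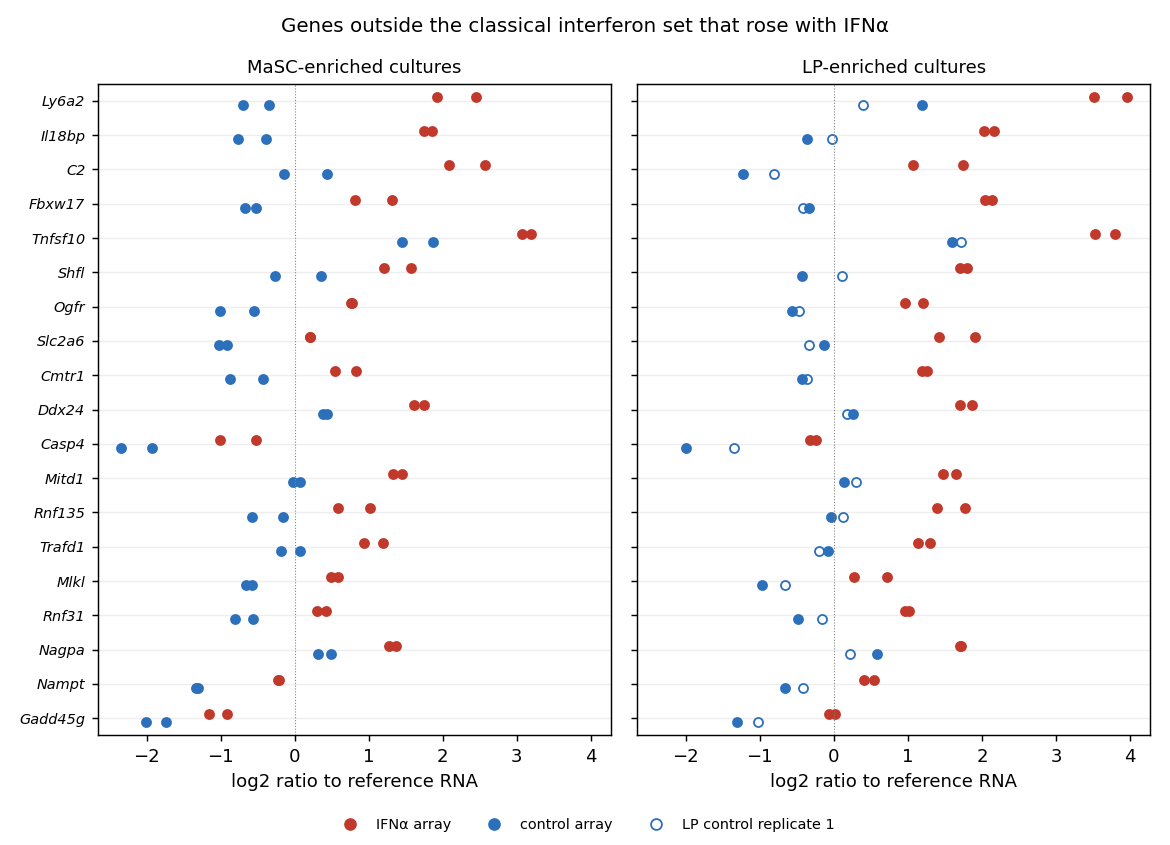
Log2 ratio to reference RNA (x axis) of the 19 named genes outside the classical set that rose, 1 gene a row, for MaSC cultures (left panel) and LP cultures (right panel). Each point is 1 array, in red for IFNα and blue for control, with LP control replicate 1 as an open circle. Within each panel both IFNα points lie right of both control points in every row, by a mean difference of 0.84 in MaSC for Gadd45g and up to 2.94 in LP for Ly6a2.

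The start regions of these genes were searched for the core of the interferon-stimulated response element, written as GAAA, any 2 bases and GAAA again, on both strands. Windows of 300 bases, from 250 before to 50 after an annotated start, came from RefSeq on build GRCm38.p6. That start is not always the outer end of the gene, as in Mitd1, where the gene extends further upstream. The core was present in 3 of the 18 genes outside the set with a window, or 16.7%, in 39 of 81 classical rises, or 48.1%, and in 678 of all 17127 genes with a window, or 3.96%. It was in 636 of 17025 genes that did not pass, or 3.74%. The 3 windows outside the set are printed because they hold the core, beside Isg15, a classical gene whose window holds 3 overlapping copies. Gm11127, 1 of the 3, has the synonym of the classical gene H2-K1. Sequences run 5′ to 3′ on the strand of the gene, and capitals mark the core.
Mitd1: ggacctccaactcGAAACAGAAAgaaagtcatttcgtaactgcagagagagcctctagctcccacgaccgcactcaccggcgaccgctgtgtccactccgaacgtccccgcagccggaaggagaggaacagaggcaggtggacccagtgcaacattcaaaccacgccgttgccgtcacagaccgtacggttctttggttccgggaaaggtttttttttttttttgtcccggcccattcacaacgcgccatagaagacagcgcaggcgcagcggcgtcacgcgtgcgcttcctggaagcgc
Ogfr: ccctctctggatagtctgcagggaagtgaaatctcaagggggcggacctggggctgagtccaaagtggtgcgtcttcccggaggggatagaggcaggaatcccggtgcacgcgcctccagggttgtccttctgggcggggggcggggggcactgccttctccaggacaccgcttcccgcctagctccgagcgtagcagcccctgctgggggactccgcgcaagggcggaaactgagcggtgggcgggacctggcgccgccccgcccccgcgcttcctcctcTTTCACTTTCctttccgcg
Gm11127: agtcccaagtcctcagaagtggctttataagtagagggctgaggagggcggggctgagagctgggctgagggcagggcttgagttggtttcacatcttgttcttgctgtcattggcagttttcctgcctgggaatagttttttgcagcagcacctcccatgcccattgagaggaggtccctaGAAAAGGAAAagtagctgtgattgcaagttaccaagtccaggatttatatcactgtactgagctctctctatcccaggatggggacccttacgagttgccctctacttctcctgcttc
Isg15: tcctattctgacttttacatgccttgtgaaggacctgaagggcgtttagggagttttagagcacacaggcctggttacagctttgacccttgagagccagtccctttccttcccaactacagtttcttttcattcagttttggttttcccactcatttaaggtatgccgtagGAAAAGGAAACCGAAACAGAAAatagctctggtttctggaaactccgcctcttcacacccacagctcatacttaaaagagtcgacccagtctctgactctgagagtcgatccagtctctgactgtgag
The windows lie at chr1:37890362-37890661, minus strand (Mitd1), chr2:180589157-180589456, plus strand (Ogfr), chr17:36058322-36058621, minus strand (Gm11127) and chr4:156200769-156201068, minus strand (Isg15). Counted from the annotated start of the window as 0, the core lies at bases -237 to -228 in Mitd1 and -68 to -59 in Gm11127, and past the start, at 31 to 40 and on the opposite strand, in Ogfr. A match is a run of letters and not a measured site, and a window without one says only that these letters are not in it.

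Among secreted and surface proteins, Il18bp had the lowest adjusted p of the 19. It encodes the soluble protein that binds and neutralises interleukin-18. Il18bp read 1.74 and 1.86 in MaSC cultures with IFNα, against -0.39 and -0.76 in MaSC controls, and 2.03 and 2.17 in LP cultures with IFNα, against -0.03 and -0.36 in LP controls. The 4 IFNα arrays were alike in both populations and all above the controls. The rise was 2.33 ± 0.14 (adjusted p = 0.000739), and no single array changed the call (adjusted p = 0.00177 to 0.00847).

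Ly6a2 was the largest rise with a gene name outside the set, 2.83 ± 0.24 (adjusted p = 0.00261). It belongs to the Ly6 family of small proteins anchored in the membrane by lipid, which includes the stem cell marker Sca-1. The gene read 1.92 and 2.45 in MaSC cultures with IFNα, against -0.35 and -0.70 in MaSC controls, and 3.96 and 3.51 in LP cultures with IFNα, against 0.40 and 1.19 in LP controls. LP arrays lay above MaSC arrays under both treatments, and the groups did not overlap within or across populations. Ly6 genes are close copies of one another, so signal from a relative cannot be told apart. The Sca-1 gene itself was not analysed here. None of 11 other Ly6 genes passed on all arrays, with a median of 0.33, and Ly6f at 1.34 ± 0.28 (adjusted p = 0.187) had the lowest p of them. Of these 11, 4 were higher on both IFNα arrays than on both controls in each population, as were 624 of all 21794 genes. Among the 4 was Ly6g, at 2.64 ± 0.69 (adjusted p = 0.39), a change near that of Ly6a2.

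C2, the protease of the classical complement convertase, read 2.57 and 2.08 in MaSC cultures with IFNα, against 0.44 and -0.14 in MaSC controls, and 1.75 and 1.06 in LP cultures with IFNα, against -0.81 and -1.23 in LP controls. It was higher in MaSC than in LP with either treatment, and it rose by 2.30 ± 0.24 (adjusted p = 0.00668). C2 was the only one of 24 complement and coagulation genes that passed, and the median of that list was 0.07. Tnfsf10, which encodes the death ligand TRAIL, read 3.20 and 3.06 in MaSC cultures with IFNα, against 1.87 and 1.45 in MaSC controls, and 3.52 and 3.80 in LP cultures with IFNα, against 1.71 and 1.59 in LP controls. The lowest treated array was above the highest control by more than 1 on this scale, and the rise was 1.74 ± 0.18 (adjusted p = 0.00592). Tnfsf10 kept its call with any 1 array left out.

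Genes of cell death and the inflammasome held 4 rises among 22 measured members, beside 0.615% of all genes tested, with a list median of 0.29. They were Tnfsf10, Daxx, Casp4 and Mlkl, of which Daxx, a nuclear body protein, is also in the classical set and rose by 1.47 ± 0.16 (adjusted p = 0.0091). Mlkl, the pore-forming executor of necroptosis, read 0.49 and 0.58 in treated MaSC against -0.58 and -0.66 in control MaSC, and 0.27 and 0.71 in treated LP against -0.66 and -0.97 in control LP. It rose by 1.23 ± 0.15 (adjusted p = 0.015). Casp4, the mouse sensor of bacterial lipopolysaccharide in the cytosol, read -0.52 and -1.01 in treated MaSC against -1.92 and -2.34 in control MaSC, and -0.24 and -0.32 in treated LP against -1.35 and -1.999 in control LP. All its values were below the reference RNA, and the rise was 1.38 ± 0.20 (adjusted p = 0.0403). Both calls rested on the full set of arrays: Mlkl passed in 2 of the 8 fits that leave out 1 array and Casp4 in 1, with adjusted p of 0.0399 to 0.0818 and 0.0399 to 0.181. Casp4 passed only without LP control replicate 1, and Mlkl only without LP control replicate 1 or LP IFNα replicate 1.

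Proteins that act on RNA came next. Ddx24, a DEAD-box RNA helicase, read 1.62 and 1.75 in MaSC cultures with IFNα, against 0.38 and 0.44 in MaSC controls, and 1.70 and 1.86 in LP cultures with IFNα, against 0.18 and 0.26 in LP controls. Values under 1 treatment were close in both populations, and Ddx24 rose by 1.42 ± 0.12 (adjusted p = 0.00297). Cmtr1, which methylates the first transcribed nucleotide of capped mRNA, read 0.83 and 0.55 in treated MaSC against -0.42 and -0.88 in control MaSC, and 1.19 and 1.26 in treated LP against -0.36 and -0.43 in control LP. It rose by 1.48 ± 0.15 (adjusted p = 0.00689). Shfl, an inhibitor of ribosomal frameshifting known for restricting viruses, read 1.57 and 1.21 in treated MaSC against 0.36 and -0.27 in control MaSC, and 1.71 and 1.80 in treated LP against 0.11 and -0.44 in control LP. Its controls were spread more widely than its treated arrays, and it rose by 1.63 ± 0.23 (adjusted p = 0.0316). Ddx24 and Cmtr1 passed with any 1 array left out, while Shfl passed only without MaSC control replicate 1 (adjusted p = 0.0231 to 0.16 over the 8 fits).

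Regulators of innate signalling rose by similar amounts. Rnf135, the ubiquitin ligase Riplet that activates the RNA sensor RIG-I, read 1.01 and 0.59 in treated MaSC against -0.15 and -0.58 in control MaSC, and 1.39 and 1.77 in treated LP against 0.12 and -0.04 in control LP, a rise of 1.35 ± 0.19 (adjusted p = 0.0286). Rnf31, the catalytic subunit of the linear ubiquitin ligase complex, read 0.43 and 0.30 in treated MaSC against -0.56 and -0.81 in control MaSC, and 0.96 and 1.02 in treated LP against -0.16 and -0.48 in control LP, a rise of 1.18 ± 0.14 (adjusted p = 0.0136). Trafd1, a feedback inhibitor of Toll-like receptor signalling, read 0.94 and 1.20 in treated MaSC against -0.19 and 0.07 in control MaSC, and 1.13 and 1.30 in treated LP against -0.19 and -0.08 in control LP, a rise of 1.24 ± 0.14 (adjusted p = 0.00925). In all 3 genes the treated arrays lay above every control, but none kept its call with each array left out. Rnf135 passed in 2 of these 8 fits, Rnf31 in 3 and Trafd1 in 4, with highest adjusted p of 0.142, 0.0785 and 0.0559. Rnf135 passed only without MaSC IFNα replicate 2 or MaSC control replicate 1, Rnf31 only without MaSC control replicate 1 or either LP control array, and Trafd1 was lost without MaSC IFNα replicate 2, MaSC control replicate 1 or either LP IFNα array.

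The remaining named genes had varied roles. Ogfr, the opioid growth factor receptor, read 0.77 and 0.77 in treated MaSC against -0.55 and -1.01 in control MaSC, and 0.96 and 1.21 in treated LP against -0.48 and -0.57 in control LP. It rose by 1.57 ± 0.14 (adjusted p = 0.00362). Mitd1, which acts with ESCRT-III in the last step of cell division, read 1.44 and 1.33 in treated MaSC against 0.08 and -0.03 in control MaSC, and 1.65 and 1.48 in treated LP against 0.30 and 0.13 in control LP. The values of Mitd1 under 1 treatment were close in both populations, and it rose by 1.35 ± 0.12 (adjusted p = 0.00277). Fbxw17, an F-box protein gene, read 1.32 and 0.82 in treated MaSC against -0.52 and -0.67 in control MaSC, and 2.04 and 2.13 in treated LP against -0.42 and -0.34 in control LP. Its controls were alike in both populations while treated LP arrays exceeded treated MaSC arrays, and it rose by 2.07 ± 0.21 (adjusted p = 0.00592). Ogfr, Mitd1 and Fbxw17 passed with any 1 array left out.

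Metabolic genes were represented by Nampt, Slc2a6 and Nagpa. Nampt, the rate-limiting enzyme of NAD salvage, read -0.21 and -0.22 in MaSC cultures with IFNα, against -1.34 and -1.31 in MaSC controls, and 0.55 and 0.41 in LP cultures with IFNα, against -0.41 and -0.66 in LP controls. LP exceeded MaSC under both treatments, and Nampt rose by 1.06 ± 0.12 (adjusted p = 0.0091). It was the only one of 20 genes of nucleotide, tryptophan and one-carbon metabolism that passed, and their median was 0.03. Slc2a6, a glucose transporter family member, read 0.20 and 0.21 in treated MaSC against -0.91 and -1.02 in control MaSC, and 1.42 and 1.90 in treated LP against -0.34 and -0.14 in control LP. It rose by 1.53 ± 0.20 (adjusted p = 0.0213), but its 2 probes changed by 0.90 and 2.17. Nagpa, which uncovers the mannose 6-phosphate tag of lysosomal enzymes, rose by 1.11 ± 0.15 (adjusted p = 0.0257), with 4 treated values of 1.27 to 1.72 against 4 control values of 0.22 to 0.58.

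Gadd45g, a stress-induced growth arrest gene, was the smallest rise outside the classical set, 0.99 ± 0.15 (adjusted p = 0.0412). It read -0.92 and -1.15 in treated MaSC against -1.74 and -2.01 in control MaSC, and 0.02 and -0.07 in treated LP against -1.03 and -1.31 in control LP. Treated MaSC arrays overlapped the LP controls, so only the comparison within a population separated them. Gadd45g lost its call with any 1 array left out (adjusted p = 0.0696 to 0.191). Nampt passed in 4 of these 8 fits (adjusted p = 0.0197 to 0.063), Slc2a6 only without LP IFNα replicate 2 (0.0413 to 0.104) and Nagpa only without LP control replicate 1 (0.043 to 0.13). Nampt was lost without either MaSC IFNα array, MaSC control replicate 1 or LP IFNα replicate 1.

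The 5 gene models rose by more than most named genes. Gm9706, annotated as a pseudogene, read 2.67 and 2.91 in MaSC cultures with IFNα, against -2.69 and -2.21 in MaSC controls, and 2.85 and 3.19 in LP cultures with IFNα, against -1.31 and -2.17 in LP controls. It had the largest rise outside the set, 4.996 ± 0.24 (adjusted p = 0.000302), and it passed with any 1 array left out (adjusted p = 0.00024 to 0.00471). F830016B08Rik, which RefSeq also lists as Ifgga4, rose by 3.23 ± 0.39 (adjusted p = 0.0148). Gm11127 and LOC547349, both with the synonym H2-K1, a class I MHC gene, rose by 2.23 ± 0.20 and 1.97 ± 0.22 (adjusted p = 0.00327 and 0.0091). The transcribed pseudogene 9030619P08Rik rose by 2.16 ± 0.24 (adjusted p = 0.00883). A pseudogene or a close copy of a class I gene can share probe signal with its relatives, so these names are uncertain.

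Of the 24 rises outside the set, 11 passed in all 8 fits that leave out 1 array, and of the 110 classical rises 81 did. The 11 were C2, Cmtr1, Ddx24, Fbxw17, Il18bp, Ly6a2, Mitd1, Ogfr, Tnfsf10, Gm11127 and Gm9706. Each of the 134 kept its sign in every such fit. The other outside genes missed the threshold with at least 1 array left out, as LOC547349 did only without LP IFNα replicate 2 (adjusted p = 0.0562). Scale also ended some calls: with quantile normalization Tnfsf10 was at 1.31 (adjusted p = 0.367), and Gadd45g, Slc2a6, Shfl and Mlkl had adjusted p from 0.0501 to 0.178. With arrays scaled to the same standard deviation Tnfsf10, Slc2a6, Rnf135 and Gadd45g missed the threshold, at 0.063 to 0.507. Rnf135 also missed it with median centring (0.0557), and Rnf135, Casp4 and Gadd45g with 1 mean per group in place of the additive model (0.0577 to 0.104). Casp4 and Gadd45g missed it with trend and robust moderation (0.0514 and 0.0579).

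**Figure D2:**
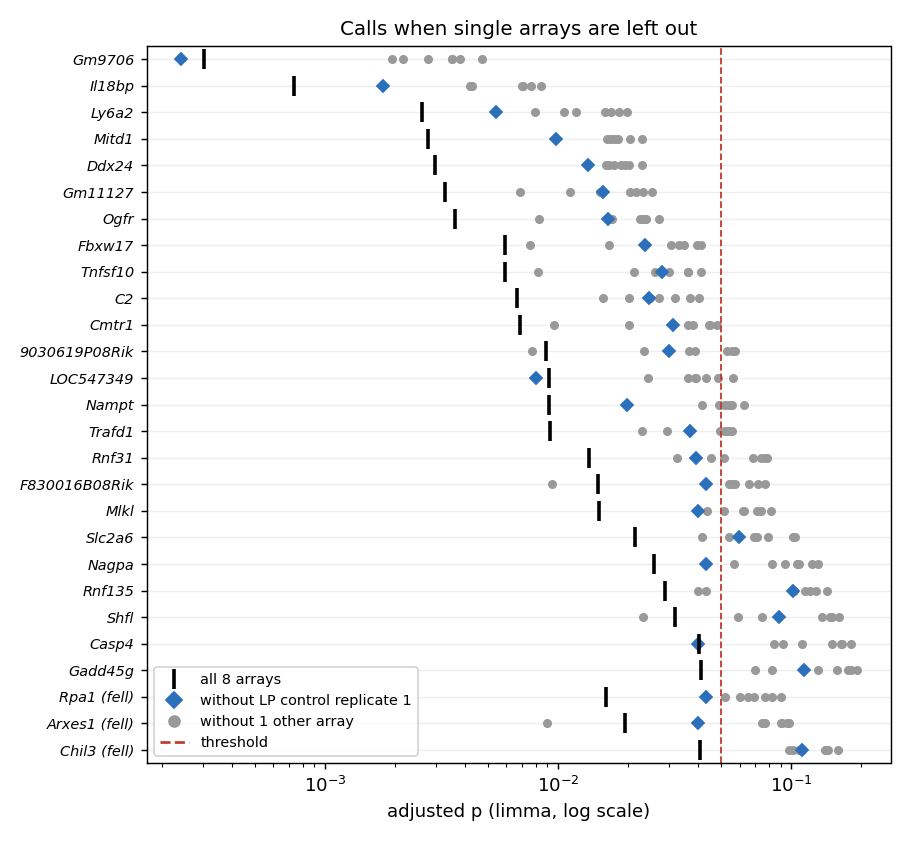
Adjusted p from limma (x axis, log scale) of the 24 rises outside the classical set and the 3 falls, 1 gene a row. Black ticks are the fit to all 8 arrays, blue diamonds the fit without LP control replicate 1, grey circles the fits without 1 other array, and the dashed line is the threshold of 0.05. In 11 rows all symbols lie left of the line, and each of the 3 falls has symbols on its right.

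Without LP control replicate 1, 134 genes again rose, or 0.615% of those tested, and 6 fell, or 0.0275%. The 2 lists of rises shared 124 genes, which is 92.5% of each. Outside the classical set there were 26 rises, of which 20 were shared. Shfl, Slc2a6, Rnf135 and Gadd45g no longer passed, with adjusted p of 0.0883, 0.0599, 0.102 and 0.113, while their changes stayed at 1.68, 1.42, 1.35 and 1.02.

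The repeat added Krt28, Ly6f, Olfr206, Tdrd5, Tigd5 and Zfp811. Tigd5, a transposase-derived gene, read 0.71 and 0.73 in MaSC cultures with IFNα, against -0.83 and -0.89 in MaSC controls, and 0.64 and 0.93 in LP cultures with IFNα, against 0.52 and -0.89 in LP controls. The first LP control was close to the treated arrays and the other near the MaSC controls. Without it Tigd5 rose by 1.62 (adjusted p = 0.00672), against 0.336 on all arrays. Krt28, a hair follicle keratin gene, rose by 1.64, Ly6f by 1.59, Tdrd5, a Tudor domain gene of germ cells, by 2.31, the olfactory receptor gene Olfr206 by 1.60 and the zinc finger gene Zfp811 by 1.54, with adjusted p from 0.0139 to 0.0385. On all arrays these 5 had adjusted p from 0.0683 to 0.684. In these fits the LP control is 1 array, taken to vary like the other groups.

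The population term let the response be set side by side in MaSC and LP. No gene passed the test of the difference between the 2 responses in limma (lowest adjusted p = 0.9997), and 931 of the 21794 genes had an unadjusted p below 0.05. Of the 134 rises 85 were larger in LP and 49 larger in MaSC, and outside the classical set 19 of 24 were larger in LP. The share of all genes with the larger change in LP was not counted, so these counts have no background. The median change of all genes was -0.047 in MaSC alone and 0.004 in LP alone. Fbxw17 changed by 1.67 in MaSC and 2.46 in LP, a difference of -0.80 ± 0.31 (MaSC minus LP), and was the only one of the 24 with an unadjusted p below 0.05 for it. F830016B08Rik differed the other way, by 1.07. Fits to MaSC alone or LP alone called 0 genes in limma, with 644 higher and 525 lower in MaSC and 695 higher and 621 lower in LP at an unadjusted p below 0.05. With 2 arrays a group, missing the threshold here does not mean that MaSC and LP responded alike.

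**Figure D3:**
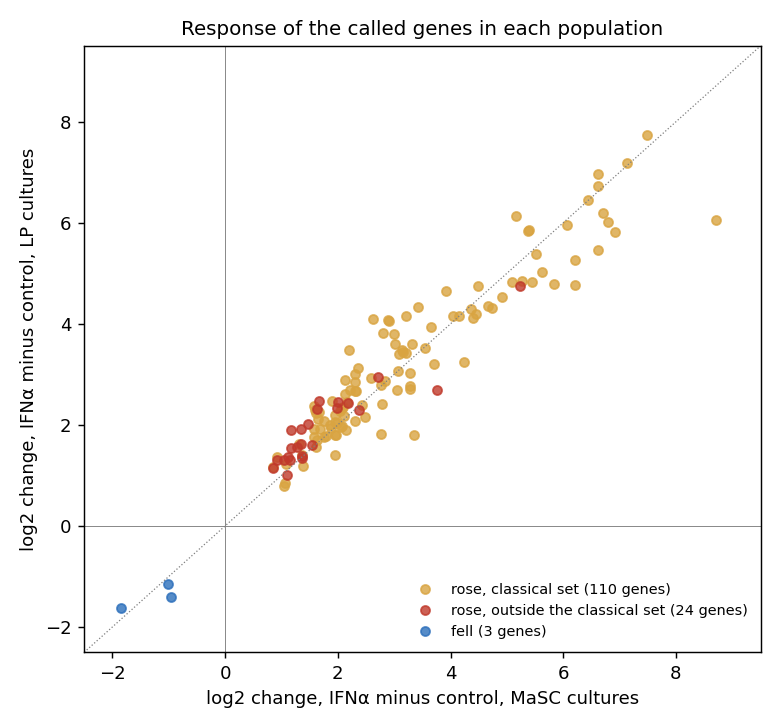
Log2 change with IFNα, IFNα minus control, in MaSC cultures (x axis) and LP cultures (y axis) for the genes that passed, with classical rises, rises outside the classical set and falls in separate colours and the diagonal marking equal change. The 134 rises lie in the upper right with both changes positive, 85 of them above the diagonal, and the 3 falls lie in the lower left.

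Lower expression with IFNα in both populations was sought as a second pattern. In 1051 genes, or 4.82% of those tested, both IFNα arrays were below both control arrays within MaSC and within LP, and in 624 genes the opposite held. Of the 1051 genes 577 had an unadjusted p below 0.05, 377 were lower on every IFNα array than on any control array, and 36 were lower by at least 1 in each population. After adjustment 3 passed, namely Rpa1, Arxes1 and Chil3. Gene models made up 99 of the 1051. The response element core was in 4.03% of their start regions, close to the 3.96% over all genes.

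Rpa1, the large subunit of the single-strand DNA-binding protein RPA, read -2.02 and -1.93 in MaSC cultures with IFNα, against -0.91 and -1.02 in MaSC controls, and -2.07 and -2.31 in LP cultures with IFNα, against -0.88 and -1.20 in LP controls. Each treated array was below each control, and Rpa1 fell by 1.08 ± 0.13 (adjusted p = 0.0161). Its 2 probes disagreed, with changes of -1.86 and -0.30, so the value depends on 1 probe. With the probe of highest mean alone, Rpa1 was at -0.30 (adjusted p = 0.84).

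Arxes1, an adipocyte-related gene of the X chromosome, read -3.74 and -3.37 in MaSC cultures with IFNα, against -1.85 and -1.54 in MaSC controls, and -4.03 and -4.02 in LP cultures with IFNα, against -1.95 and -2.84 in LP controls. Treated arrays lay below every control, and Arxes1 fell by 1.74 ± 0.22 (adjusted p = 0.0193). A close copy, Arxes2, can share its signal. None of 9 adipocyte markers passed, their mean was 0.91 and 1.16 on treated MaSC arrays against 1.67 and 1.63 on control MaSC arrays, and -0.32 and -0.10 on treated LP arrays against -0.17 and -0.41 on control LP arrays. Their part in the change of Arxes1 was not tested.

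Chil3, a secreted chitinase-like protein known from macrophages, read -2.67 and -2.57 in MaSC cultures with IFNα, against -1.62 and -1.70 in MaSC controls, and -3.07 and -2.65 in LP cultures with IFNα, against -1.65 and -1.25 in LP controls. The groups did not overlap, and Chil3 fell by 1.19 ± 0.17 (adjusted p = 0.0408). None of 19 leukocyte markers passed. Their mean was -2.07 and -2.06 on treated MaSC arrays against -1.94 and -1.89 on control MaSC arrays, and -2.10 and -2.14 on treated LP arrays against -0.92 and -2.13 on control LP arrays, with the first LP control apart from the rest. The part of leukocytes in the change of Chil3 was not tested.

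None of the 3 falls passed in all fits that leave out 1 array, and none passed with quantile normalization, with adjusted p of 0.519 for Rpa1, 0.352 for Arxes1 and 0.948 for Chil3. Arxes1 passed only without an LP control array, at 0.0399 without replicate 1 and 0.00899 without replicate 2, Rpa1 only without LP control replicate 1 (0.043) and Chil3 in none (0.0976 to 0.159). Without LP control replicate 1, Rpa1 and Arxes1 passed with Acsm2, Atp4b, Defb39 and the gene model Gm9866. Acsm2, an acyl-CoA synthetase gene, read -0.05 and 0.06 in MaSC cultures with IFNα, against 1.30 and 1.70 in MaSC controls, and 0.01 and -0.12 in LP cultures with IFNα, against 0.14 and 1.65 in LP controls. The 1 LP control left was far above the treated arrays, while the array left out was close to them. Acsm2 fell by 1.58 in that repeat (adjusted p = 0.0134), against 0.415 on all arrays. Atp4b, a proton pump subunit of the stomach, fell by 1.09 and the defensin gene Defb39 by 2.03 (adjusted p = 0.0319 and 0.049).

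The other 12 named genes of lowest p among those lower in both populations did not pass. Cxcl5, a neutrophil attractant, was at -2.80 ± 0.53 (adjusted p = 0.139) and read -0.57 and -1.78 in MaSC cultures with IFNα, against 1.74 and -0.09 in MaSC controls, and 0.08 and -0.01 in LP cultures with IFNα, against 3.84 and 3.42 in LP controls. Its MaSC values were widely spread, and the LP groups were far apart. Cxcl1, a second neutrophil attractant, was at -1.05 ± 0.17 (adjusted p = 0.0751) and read 0.23 and -0.12 in treated MaSC against 1.18 and 0.73 in control MaSC, and 0.58 and 0.65 in treated LP against 1.63 and 2.00 in control LP. Both chemokines were lower on the treated arrays of each population. Slco2b1, an organic anion transporter, was at -0.84 ± 0.13 (adjusted p = 0.0633), with probe changes of -1.47 and -0.21 that disagreed.

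Among the same 12 were Cdc20, the activator of the anaphase-promoting complex, at -0.97 ± 0.17, and Plk4, the kinase that starts centriole duplication, at -0.72 ± 0.13 (adjusted p = 0.105 for both). Prkar2b, a regulatory subunit of protein kinase A, was at -0.85 ± 0.14, Ogdhl, an oxoglutarate dehydrogenase-like gene, at -1.20 ± 0.21, and Cbr2, a carbonyl reductase, at -1.11 ± 0.21. Zfand4 and Zfp808, both zinc finger genes, were at -1.497 ± 0.26 and -1.16 ± 0.21, Ica1l at -1.24 ± 0.22 and Tpra1 at -0.84 ± 0.15. Adjusted p for these 7 ran from 0.0782 to 0.124.

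**Figure D4:**
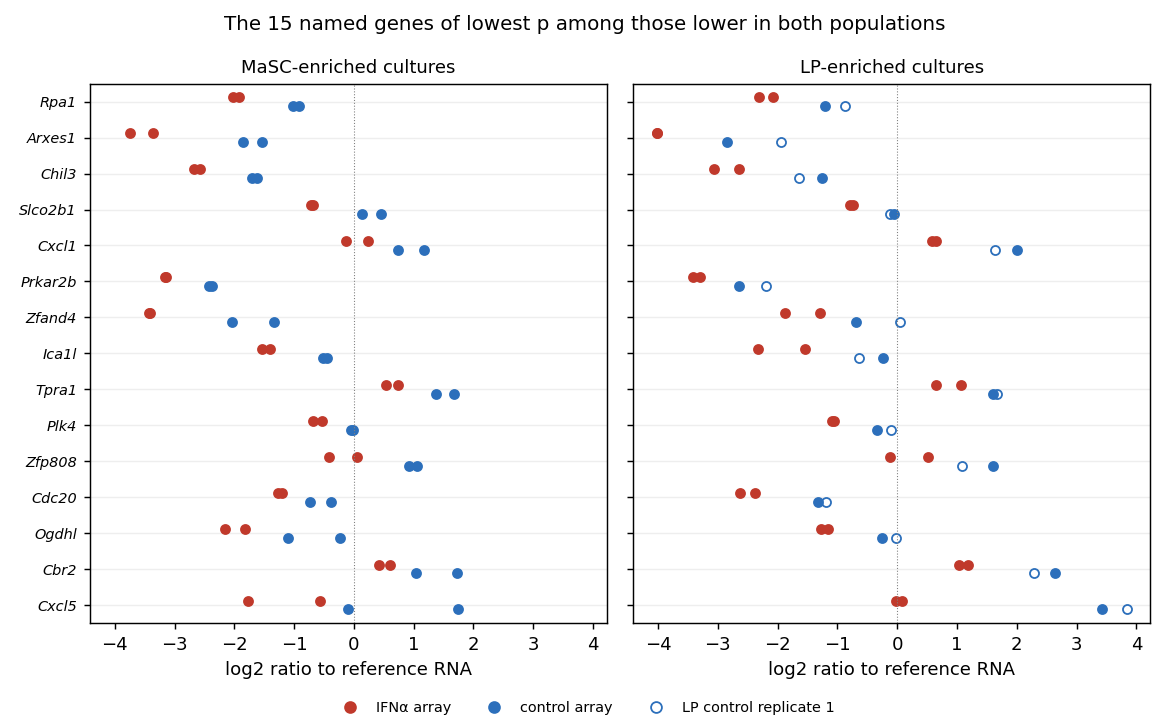
Log2 ratio to reference RNA (x axis) of the 15 named genes of lowest p among those lower in both populations, 1 gene a row, for MaSC cultures (left panel) and LP cultures (right panel). Points are single arrays, red for IFNα and blue for control, with LP control replicate 1 open. In every row both red points lie left of both blue points, a condition of the choice, and only the top 3 genes passed the test.

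Cell cycle genes were frequent among the genes lower in both populations, though none passed the test. Of 27 measured genes of the mitotic cell cycle 27 had a negative change, and 19, or 70.4%, were lower in both populations, beside 4.82% of all genes. Their median change was -0.74, with -0.44 in MaSC and -1.05 in LP, where the median of all genes was -0.02. The list averaged -1.501 and -1.46 on treated MaSC arrays against -0.87 and -1.32 on control MaSC arrays, and -2.01 and -2.32 on treated LP arrays against -0.80 and -1.40 on control LP arrays. Treated arrays were below controls in each population, by a small margin from the second MaSC control and by the widest margin from LP control replicate 1. Without that array, in a fit where MaSC weighed more than LP, the median was -0.55. With quantile normalization it was -0.434 and 11 of the 27 genes were lower in both populations.

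Cdc20 had the lowest p of the list and read -1.27 and -1.20 in MaSC cultures with IFNα, against -0.38 and -0.74 in MaSC controls, and -2.38 and -2.63 in LP cultures with IFNα, against -1.19 and -1.32 in LP controls. Cenpa, the centromere histone, was at -0.80 ± 0.16 (adjusted p = 0.176), Birc5, the mitotic protein survivin, at -0.83 ± 0.20 (0.307), Ccna2, cyclin A2, at -0.83 ± 0.20 (0.326) and Mki67, the proliferation marker Ki-67, at -0.94 ± 0.26 (0.417). The last 4 are named after their values were seen, as members of a list chosen with earlier results known. Mki67 read -2.32 and -2.28 in MaSC cultures with IFNα, against -1.53 and -2.01 in MaSC controls, and -3.21 and -3.73 in LP cultures with IFNα, against -1.82 and -2.41 in LP controls. The treated LP arrays were the lowest, and in MaSC the treated arrays were also below both controls.

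Of 27 genes of DNA replication 27 also had a negative change. Lower in both populations were 11, or 40.7%, beside 4.82% of all genes. The median was -0.45, with -0.33 in MaSC and -0.57 in LP, and none of the list passed. Rpa1, a fall that passed, was not on this list. Gins1, a subunit of the replicative helicase, had the lowest p of the list, at -0.83 ± 0.20 (adjusted p = 0.336), and read -2.19 and -2.02 in treated MaSC against -1.33 and -1.57 in control MaSC, and -2.77 and -2.85 in treated LP against -1.40 and -2.21 in control LP. The count rested on the scale of the arrays: with quantile normalization 23 changes were negative and 1 gene was lower in both populations, and with arrays scaled to 1 standard deviation 24 and 4. For the mitotic list these settings gave 27 negative changes each, and 11 and 14 genes lower in both populations. Among 25 genes of mitochondrial respiration 7, or 28.0%, were lower in both populations, with a median of -0.09 and changes of -0.32 or smaller in size in each of the 7. Of 16 p53 targets 3 were, with a median of -0.08, among them Zmat3, an RNA-binding protein gene, at -0.80 ± 0.17 (adjusted p = 0.193).

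**Figure D5:**
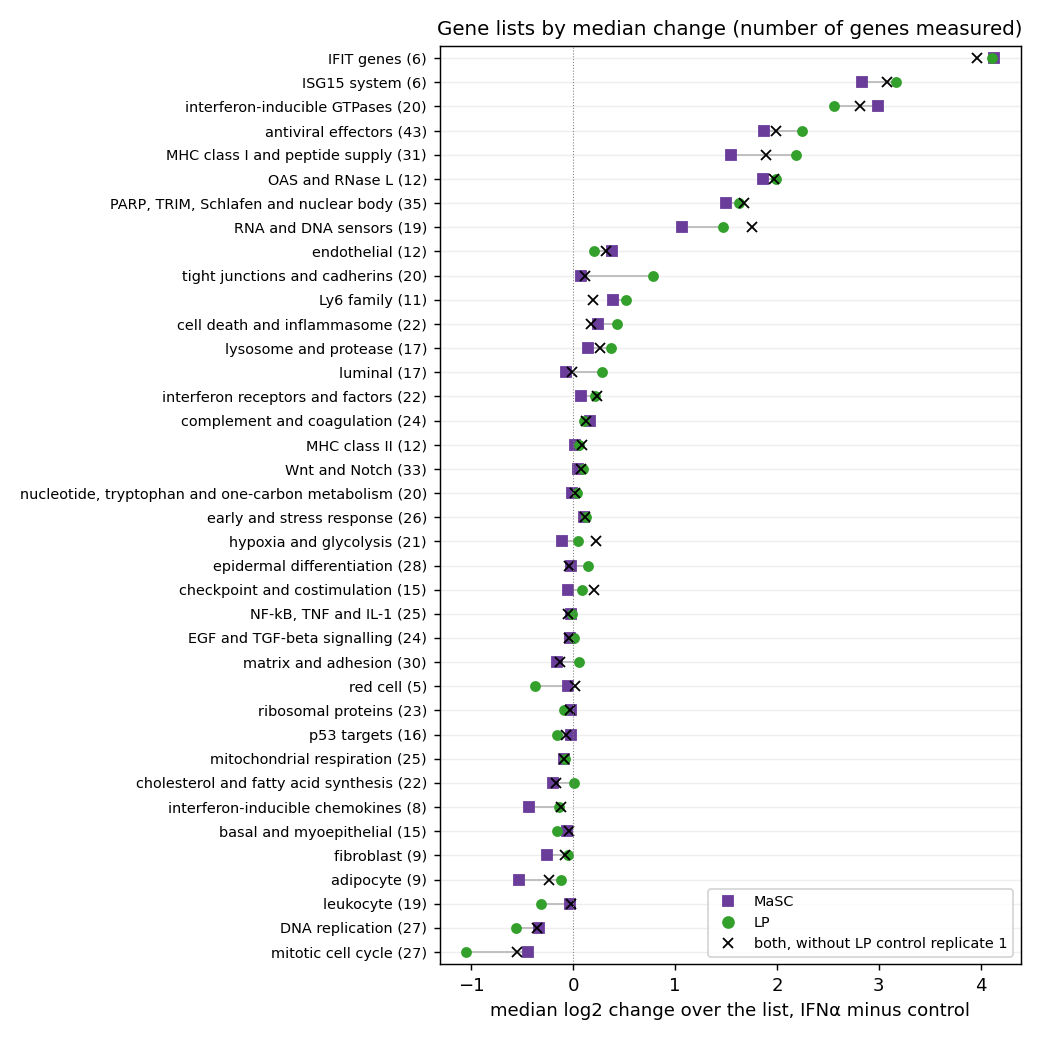
Median log2 change, IFNα minus control, over each gene list (x axis), 1 list a row with the number of genes measured, for MaSC (purple squares), LP (green circles) and both populations without LP control replicate 1 (crosses). Of 10 classical interferon lists 8 run clearly to the right, up to 4.13 in MaSC for the IFIT genes, the receptors and factors lie near 0 and the interferon-inducible chemokines lie left of 0, and the lists of the mitotic cell cycle and DNA replication lie left of 0 in both populations.

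Most other lists held no gene that passed. Besides the lists already described, Il18bp was the only rise among 25 genes of NF-κB, TNF and IL-1 signalling, whose median was -0.01. Lgals9, galectin 9, a ligand of the T cell receptor Tim-3, was the only one of 15 checkpoint and costimulatory genes that rose, by 2.87 ± 0.16 (adjusted p = 0.000466), and it is also in the classical set. MHC class II genes (12 measured, median 0.06), lysosomal genes and proteases (17, median 0.20), Wnt and Notch genes (33, median 0.05), hypoxia and glycolysis genes (21, median 0.02), early and stress response genes (26, median 0.03), cholesterol and fatty acid synthesis genes (22, median -0.09), epidermal differentiation genes (28, median 0.00) and ribosomal proteins (23, median -0.07) held none. Neither did EGF and TGF-β signalling (24, median -0.04), matrix and adhesion genes (30, median -0.05) or tight junctions and cadherins (20, median 0.36).

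Cell type markers did not pass in any of 7 lists. The median change was -0.17 for 15 basal and myoepithelial markers, 0.19 for 17 luminal, -0.25 for 19 leukocyte, -0.19 for 9 fibroblast, 0.40 for 12 endothelial, -0.20 for 9 adipocyte and -0.06 for 5 red cell markers. Values are ratios to a reference RNA, so no marker has a true zero. Cdh5, the endothelial cadherin, had the lowest p of the endothelial list, at 2.20 ± 0.58 (adjusted p = 0.401). It read 6.24 and 5.92 in MaSC cultures with IFNα, against 5.56 and 4.97 in MaSC controls, and 2.29 and 3.08 in LP cultures with IFNα, against -0.56 and -1.25 in LP controls. Treated arrays exceeded controls within each population, and all MaSC arrays exceeded all LP arrays. The 95% interval of the change of Cdh5 was wide, from 0.82 to 3.59. The part of endothelial cells in the rises described above was not tested.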

How the data were processed

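RNA of 8 cultures was hybridised to two-colour Agilent arrays, 1 array a sample, and the submitters' processing notes name Agilent Feature Extraction 11.0. The authors deposited log ratios of the channels, read here as log2 of sample (Cy5) over reference (Cy3). No source states the base. Base 2 was chosen because the range is too wide for log10 of 16-bit signals, and the dyes gave the direction. Another base would scale all changes by 1 factor and leave the tests as they are. Normalization and centring are not given in the sources used here, and array medians ran from -0.143 to 0.151. Without intensities, no probe could be tested against background.

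Of 55681 probes 30626 carried 1 gene symbol, 0 several and 25055 none. The 30398 named probes with a value on all arrays were averaged by symbol to 21794 genes, 6730 of them from several probes. Probes empty on at least 1 array numbered 347, and 99 genes with only such probes were left out. Symbols were matched to RefSeq by gene ID for 21536 genes, and 17127 had a promoter window. No further normalization was applied. The model in limma 3.58.1 (R 4.3.3) had population and treatment as terms, with empirical Bayes moderation (5 residual and 1.99 prior degrees of freedom), two-sided p-values adjusted by Benjamini and Hochberg over all genes, and a threshold of 0.05. The comparison was repeated on 7 arrays, and the difference between responses was tested with an interaction term. The alternatives were single arrays left out, other models, scales, weights, probe summaries and filters, and each population alone. The procedure was tested on simulated data with independent noise of equal size on all arrays. These held no array of narrower scale like LP control replicate 1.

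The members and the 38 gene lists (816 genes, 744 of them tested) were chosen with earlier results of these data known, so their counts are descriptions. The classical set comprised the interferon lists and symbols with 1 of 25 prefixes. Named genes were, outside the classical set, up to 25 named genes of largest rise that were higher in both populations, all falls, the 15 of lowest p among genes lower in both populations, up to 3 passing members of each classical list and up to 4 of each other list, or else the member of lowest p, and Irf7, Isg15, Ifit1, Mx1, Ifnar1, Ifnar2 and Lcor. Gene models were passed over for the rises and for the genes of lowest p. The gene models, the genes of the repeat on 7 arrays and Irf9, Nmi, Cxcl10, Ccl5, Ly6g, Arxes2, Cenpa, Birc5, Ccna2 and Mki67 were named after their values were seen.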

Additional observations from a re-analysis of the deposited data

Results flagged for a closer look

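LP control replicate 1 had a standard deviation over probes of 0.626, far from those of the other arrays. Among the named genes, 6 values lay apart from the other arrays of the same treatment, by a test for a single distant value over 4 arrays. Of the rises outside the classical set, Ogfr read -1.006 and Cmtr1 read -0.876 on MaSC control replicate 2, below the other controls. Mx1, an antiviral GTPase, read -0.546 on LP control replicate 1, where the other controls lay between -3.78 and -3.65. Elovl6, a fatty acid elongase, read 1.54 and Hbb-b1, a haemoglobin chain, read 1.185 on LP control replicate 2, above the other controls. Ica1l read -2.326 on LP IFNα replicate 1, below the other treated arrays. In all 179 values over 89 named genes were tested in this way, and chance flags about 1 in 20 groups.

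Probes without a gene symbol were outside the comparison of genes. Of 24936 such probes 23 rose with IFNα in limma and 0 fell, and without LP control replicate 1 there were 16 rises and 0 falls, with 10 rises in both. The highest of the 23 by p, A_30_P01019832, rose by 4.13 ± 0.29 (limma adjusted p = 0.0174).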

How the results depend on the processing

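The count of 134 rises ranged from 99 to 134 with single arrays left out, and was 83 with genes of 1 probe only, where 15064 genes were tested. It was 0 in MaSC alone and 0 in LP alone. Over the other settings it was 128 to 142. With the replicate block 131 genes rose, 124 of them shared, and 3 fell. Slc2a6, Rnf135, Nagpa, Arxes1 and Chil3 missed the threshold there (limma adjusted p = 0.0515 to 0.0573). The arrays were not treated as paired by replicate number. Deviations of same-numbered arrays correlated at 0.305 between the MaSC groups, but at 0.041 between the LP groups and at -0.018 to 0.111 across populations. The LP value rests on LP control replicate 1, with its narrower spread, so it cannot show that pairing was absent there. The replicate block was a term shared by MaSC and LP, so pairing within a population was not fitted. Rises outside the classical set ranged from 14 to 26 with single arrays left out (24 on all arrays), and were 0 in MaSC alone and 0 in LP alone. The 3 falls ranged from 0 to 6, and were 1 with 1 mean per group, 1 with trend and robust moderation (none of Rpa1, Arxes1 and Chil3, at 0.0641 to 0.18), 1 with genes of 1 probe only, and 0 in MaSC alone and 0 in LP alone. The 6 falls without LP control replicate 1 became 3 with trend and robust moderation. Quantile normalization and scaling each gave 2 falls, and none of these was Rpa1, Arxes1 or Chil3. Genes lower in both populations ranged from 1591 to 2070 with single arrays left out, since fewer arrays must then be ordered, and were 769 with quantile normalization, of which 556 were shared with the 1051. The mitotic median was -0.434 with quantile normalization, -0.438 in MaSC alone and -1.05 in LP alone. Over all settings, named genes lost their call 236 times, gained one 11 times, stayed on their side of the threshold 1590 times and turned direction 0 times among calls. The 236 losses include every named call in MaSC alone and in LP alone, where 0 genes passed. The cause of the other moves was not tested. With 2 arrays a group, and without intensities, small changes and dim probes are where precision is least.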

Other observations

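Replicate number went with some gene lists within 1 population under both treatments. Hypoxia and glycolysis genes averaged -0.41 on LP IFNα replicate 1 and -0.49 on LP control replicate 1, but -1.65 on LP IFNα replicate 2 and -1.70 on LP control replicate 2. Fibroblast markers averaged 0.13 on MaSC IFNα replicate 1 and 0.21 on MaSC control replicate 1, but -1.06 on MaSC IFNα replicate 2 and -0.76 on MaSC control replicate 2. Matrix and adhesion genes did likewise in MaSC, with 1.12 and 1.18 on the first IFNα and control arrays against 0.22 and 0.54 on the second. None of these lists held a gene that passed with IFNα.

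Ppargc1a, a coactivator that drives mitochondrial biogenesis, was the member of lowest p in its list. It read 1.43 and 1.49 in MaSC cultures with IFNα, against 0.59 and -0.29 in MaSC controls, and 1.61 and 2.14 in LP cultures with IFNα, against 0.63 and 0.93 in LP controls. The change was 1.20 ± 0.23 and did not pass (limma adjusted p = 0.147), and its 2 probes disagreed, with changes of 0.41 and 1.996. Of the 25 genes of mitochondrial respiration 19 had a negative change, where the median change of all genes was -0.02.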
